A study of Homo sapiens with 24 samples.

Results

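The 8 genes described here encode the arginine methyltransferases of the PRMT family other than PRMT5, namely PRMT1, PRMT2, PRMT3, CARM1, PRMT6, PRMT7, PRMT8 and PRMT9. They were found among the 58676 rows of the gene count file as the Ensembl identifiers that carry these 8 symbols, and all 8 had a row. The genes were taken by name, with earlier results of these data known. In the first comparison, 7 of the 8 passed the filter on low counts, and PRMT8 did not.

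The RNA came from HSJD-DIPG-007, a single established cell line derived from a patient's diffuse midline glioma (DMG) and grown as spheroids. Every library, treated or not, carries the same labelled genotype, which is H3F3A K27M, ACVR1 R206H and PIK3CA MIS. Cells received LLY-283, a PRMT5 inhibitor that occupies the pocket for the methyl donor SAM, at the concentration that reduces growth by 40% (GI40), or vehicle. The labels speak of a single dose, whereas the study's methods add a second dose with fresh medium after 5 days. Of the 24 libraries, 12 were labelled vehicle and 12 LLY-283, and either treatment was sampled in triplicate on days 0 and 5 (n = 3), in duplicate on day 7 (n = 2) and once on days 1, 2, 3 and 10 (n = 1). The study describes the libraries of a group and day as technical repeats, so the p-values below measure only the spread between these libraries.

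PRMTs transfer methyl groups from SAM to arginine residues of histones, RNA-binding proteins and ribosomal proteins. Type I enzymes (PRMT1, PRMT2, PRMT3, CARM1, PRMT6 and PRMT8) make asymmetric dimethylarginine, type II enzymes (PRMT5 and PRMT9) make symmetric dimethylarginine, and the type III enzyme PRMT7 makes monomethylarginine. PRMT1 is responsible for most of the asymmetric mark in mammalian cells, and many of its substrates are RNA-binding proteins that PRMT5 can also modify.

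Library totals lay between 13835205 and 23190369 estimated counts, and levels are given as TMM-normalised counts per 1000000 counts (CPM). CPM were scaled over all 24 libraries, whereas each test was scaled over its own libraries. Fold changes of the tests can therefore differ somewhat from differences in CPM, and near 0 also in sign. The markers of glioma and of oligodendrocyte precursors, OLIG1, OLIG2, PDGFRA, CSPG4, SOX2 and NES, were detected in all 24 libraries, with NES between 1906 and 2828 CPM, while SOX10 did not exceed 0.603 CPM. Microglial markers summed to between 0.12 and 0.89 CPM, and of 3 endothelial markers 1 was tested at day 5 and none was called. At day 10 the 3 endothelial markers summed to 25.4 CPM in the vehicle library and 11.9 CPM in the LLY-283 library. At day 2 the 5 fibroblast markers summed to 28.6 CPM with vehicle and 76.2 CPM with LLY-283. The 2 libraries of a group at day 7 differed far more than those of other groups, with a chi-square per degree of freedom of 11.2 for vehicle and 13.4 for LLY-283 against 1.65 to 3.79 within the groups of days 0 and 5. Over the log2 CPM of 20876 genes, the day 7 library labelled LLY-283 repeat 2 lay nearer to the vehicle mean of day 5 than to the LLY-283 mean (Euclidean distances 66.0 and 78.6), against its label, and that labelled vehicle repeat 2 lay about as far from either (72.4 and 73.5). Repeat 1 of vehicle (65.0 and 76.3) and of LLY-283 (74.5 and 63.4) lay nearer to their own treatment. Values of day 7 are therefore given library by library, and the time course also without both libraries labelled repeat 2. In bulk RNA, fewer cells with a transcript and less of it per cell cannot be told apart.

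PRMT1 had the highest RNA level of the family when levels were compared per length. Divided by the length of the merged exons, its level was 73.4 CPM per kb at the median of 24 libraries, with a range of 62.8 to 90.2. CARM1, the coactivator-associated enzyme of the family, followed at 30.4 CPM per kb, close to PRMT5 itself at 26.7, and CARM1 stood above PRMT5 in 23 of the 24 libraries. PRMT2 was at 13.1 CPM per kb, PRMT3 at 7.57, PRMT6 at 7.14, PRMT7 at 3.78 and PRMT9 at 3.36. PRMT3 and PRMT6 changed places from library to library, with PRMT3 the higher in 16 of 24, so that their order was not beyond the spread. PRMT1 made up 53.1% of the summed level of the 8 genes at the median, with a range of 50.4% to 55.6%. The lengths used bear on this order, since with the longest annotated transcript of each gene the share of PRMT1 became 67.4% and PRMT7 moved above PRMT3 in 22 of 24 libraries.

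**Figure D1:**
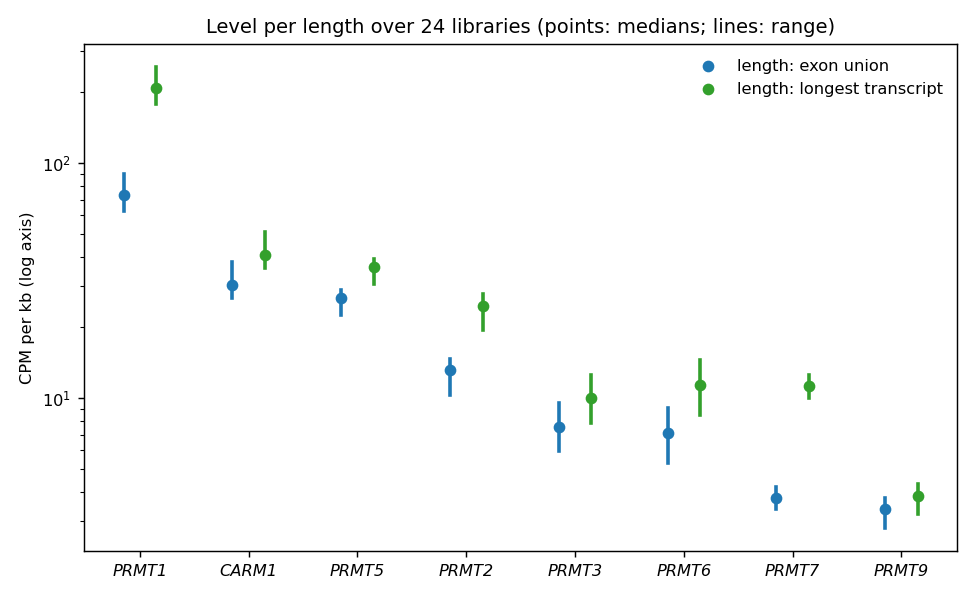
Level of each expressed PRMT gene per kb of length, in CPM per kb on a log axis, over 24 libraries, with points for the median and lines for the range. Blue uses the merged exon length and green the longest transcript, and PRMT1 stands highest on both, at a median of 73.4 CPM per kb with merged exons.

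PRMT8, a membrane-anchored type I enzyme known from neurons, was nearly undetected. It had between 0 and 3 counts in a library, 0 counts in 7 of the 24 libraries and 26 counts in all, out of library totals of at least 13835205. Of the 5 neuronal markers, SYT1 was at 44.8 to 73.8 CPM, RBFOX3 at 0.876 to 2.22 CPM, STMN2 at 0.329 to 2.12 CPM, SNAP25 at no more than 0.297 CPM and NEFL at 0 counts in all 24 libraries. No comparison between groups could be made for PRMT8 at this depth.

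At day 5, the treatment difference on which the study's differential expression rests, PRMT1, PRMT3 and CARM1 were lower in the LLY-283 libraries. Of the 7 genes tested, 3 were called at an adjusted p under 0.01, and all 3 were lower, whereas 26.1% of all 16491 genes tested were called and 14.1% were called lower. The median log2 fold change of the 7 genes was -0.14, beside 0.02 over all genes tested. The log2 fold change was below 0 for 6 of the 7, as for 47.1% of all genes. In CPM, scaled over all 24 libraries, every LLY-283 library was below every vehicle library for 5 of the 7 genes. Over all genes 46.3% had separate groups on that scale and 25.5% were separate and lower.

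PRMT1 (ENSG00000126457) lies on chromosome 19 of GRCh38 from 49675786 to 49689029, on the plus strand. At day 5 it was at 417.4, 409.9 and 389.1 CPM in the vehicle libraries and at 337.5, 334.4 and 332.1 CPM in the LLY-283 libraries. Every LLY-283 library thus lay below every vehicle library. The means were 405.5 ± 14.6 and 334.7 ± 2.73 CPM (SD, n = 3), and the log2 fold change was -0.25 ± 0.035 (SE), with a 95% interval of -0.32 to -0.18 (edgeR's quasi-likelihood test, Benjamini-Hochberg adjusted p = 1.7e-06). By this fold change, the LLY-283 level differed from the vehicle level of the same day by -16.0%, while the difference in log2 CPM was -0.276. Exons of PRMT1 overlap those of ENSG00000268677 on the other strand over 171 bases.

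CARM1 (ENSG00000142453) lies on the same chromosome from 10871553 to 10923075, on the plus strand, and methylates transcriptional coactivators, the poly(A)-binding protein and a subunit of the SWI/SNF remodelling complex. It was at 159.7, 167.7 and 166.7 CPM with vehicle at day 5 and at 130.5, 132.8 and 130.6 CPM with LLY-283. The 3 LLY-283 libraries lay within a narrow range below all vehicle libraries. The log2 fold change was -0.30 ± 0.037 (SE; interval -0.38 to -0.22, edgeR adjusted p = 3.08e-07), a difference of -18.8% from the vehicle level of the same day. The difference in log2 CPM was -0.326. Exons of CARM1 overlap those of YIPF2 on the other strand over 891 bases, and the sources used here do not say whether the counting used strand.

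PRMT3 (ENSG00000185238; chromosome 11, 20387558 to 20509338, plus strand), a cytosolic enzyme whose main known substrate is the ribosomal protein RPS2, showed a smaller difference. It was at 43.40, 37.03 and 39.63 CPM with vehicle and at 34.3, 32.7 and 34.9 CPM with LLY-283. The groups were separate, but the highest LLY-283 library was close to the lowest vehicle library. The log2 fold change was -0.21 ± 0.061 (SE; interval -0.34 to -0.088, edgeR adjusted p = 0.00694). Unlike that of PRMT1 and CARM1, this call rests on the choice of method and library, since DESeq2 gave an adjusted p of 0.033, scaling by library size alone 0.02, a single edgeR fit of 22 libraries 0.04, and edgeR without the first vehicle library 0.071 (log2 fold change -0.16), without the third 0.015, without the first LLY-283 library 0.011 and without the second 0.042.

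The stretches of DNA before the RefSeq start sites of these 3 genes are shown because their transcripts were lower together. The window searched was the 250 bases before the start (RefSeq, GRCh38.p14), from which bases that GENCODE places within an exon were left out of the print, so that 52 bases are given for PRMT1, 92 for PRMT3 and 250 for CARM1 (the first of its RefSeq starts), all 5′ to 3′ on the plus strand. Capitals mark matches on either strand to the GC box (letters GGGCGG), the CCAAT box by its name, the E-box (letters CACGTG), an ETS motif (letters CCGGAAG), the palindromic NRF1 consensus, or an E2F motif (letters TTTCGCGC or, alternatively, TTTGGCGC).
PRMT1, chr19:49677021-49677072: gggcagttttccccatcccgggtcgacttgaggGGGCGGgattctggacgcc
PRMT3, chr11:20387466-20387557: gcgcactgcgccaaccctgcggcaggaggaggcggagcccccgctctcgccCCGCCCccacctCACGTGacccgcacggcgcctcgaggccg
CARM1, chr19:10871303-10871552: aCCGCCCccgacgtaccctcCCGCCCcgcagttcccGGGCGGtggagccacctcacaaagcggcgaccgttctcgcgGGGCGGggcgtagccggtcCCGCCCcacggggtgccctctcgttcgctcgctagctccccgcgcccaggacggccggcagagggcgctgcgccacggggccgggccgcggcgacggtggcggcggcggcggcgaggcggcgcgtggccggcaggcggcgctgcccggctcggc

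All 3 windows held the GC box, as did 42.6% of the 35116 promoters of the reference, with 1 match for PRMT1, 2 for PRMT3 and 5 for CARM1. At least 5 matches were found in 4.15% of promoters. Of the 2 for PRMT3, the match nearer the start lies in the exonic bases not printed. The GC box was also found for PRMT2, PRMT7 and PRMT9, which were not called at day 5, but not for PRMT6. G and C made up 61.2% of the window of PRMT1, 76.8% for PRMT3 and 81.6% for CARM1, beside a median of 58.0% over all promoters. The window of PRMT1 lies within the gene as GENCODE places it, which starts at 49675786. The E-box was found for PRMT3 alone among the 3, against 6.34% of all promoters, as was the ETS motif, which runs into the bases not printed, against 8.52%, and CCAAT was found for PRMT1 alone, with 2 matches in the exonic bases not printed, against 32% of promoters. Neither the NRF1 nor the E2F letters occurred in the 3 windows, against 1.03% and 0.968% of promoters. A match of letters describes these windows and is no evidence that a factor binds there.

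PRMT6, PRMT7, PRMT2 and PRMT9 did not pass the threshold at day 5. PRMT6 (ENSG00000198890; chromosome 1, 107056674 to 107067636, plus strand), a nuclear enzyme that modifies histone tails, was at 30.09, 27.69 and 30.02 CPM with vehicle and at 26.8, 26.6 and 25.2 CPM with LLY-283. These groups did not overlap, and the log2 fold change of -0.14 had an interval of -0.27 to -0.0060 (edgeR adjusted p = 0.0957). PRMT7 (ENSG00000132600; chromosome 16, 68310951 to 68360852, plus strand) was at 48.2 to 49.6 CPM with vehicle and at 46.8 to 47.8 CPM with LLY-283. This is also a separation, with a narrow gap and a difference in mean log2 CPM of -0.0481. The log2 fold change of the fit was only -0.023 (interval -0.125 to 0.078, edgeR adjusted p = 0.747). Whether the groups are separate at the scaling of the fit was not examined. Exons of PRMT7 overlap those of SMPD3 on the other strand over 1931 bases.

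PRMT2 (ENSG00000160310; chromosome 21, 46635595 to 46665124, plus strand), a type I enzyme with weak activity of its own, was at 102.2, 105.4 and 99.4 CPM with vehicle at day 5 and at 101.8, 101.2 and 98.4 CPM with LLY-283. The groups overlapped, and the interval of the log2 fold change, -0.083 to 0.079 (edgeR adjusted p = 0.971), does not reach the differences of PRMT1, PRMT3 or CARM1. PRMT9 (ENSG00000164169; chromosome 4, 147637785 to 147684163, minus strand), the other type II enzyme and a methylase of the splicing factor SF3B2, was at 12.8 ± 1.03 CPM with vehicle and, with LLY-283, 12.6 ± 1.20 CPM (SD, n = 3). With 179 to 330 counts in a library, its interval of -0.19 to 0.21 is the widest of the 7 genes, and a difference as large as that of PRMT6 lies within it (edgeR adjusted p = 0.935). PRMT5 itself was at 90.6 ± 2.84 and 82.3 ± 1.60 CPM (SD, n = 3), a log2 fold change of -0.11 (edgeR adjusted p = 0.0307).

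Markers of other cell types differed between the same libraries. The 7 glioma and precursor markers summed to 4785 to 4894 CPM with vehicle at day 5 and to 4517 to 4575 CPM with LLY-283, with 2 of 6 tested genes higher and 2 lower. The 5 neuronal markers summed to 54.9 to 57.3 CPM in the vehicle libraries of day 5 and to 67.5 to 72.7 CPM in the LLY-283 libraries, nearly all of it from SYT1, with 3 of the 5 tested, 1 called higher and none called lower. The 5 fibroblast markers summed to 31.5, 31.5 and 128 CPM in vehicle repeats 1, 2 and 3 and to 37.2 to 44.2 CPM with LLY-283, with 4 of the 5 tested, 1 called higher and none called lower. Over all genes tested at day 5, 12% were called higher and 14.1% lower. The part of these markers in the differences was not tested. Without vehicle repeat 3, the log2 fold changes were -0.286 for PRMT1, -0.225 for PRMT3 and -0.297 for CARM1. With all libraries of day 5 they were -0.252, -0.213 and -0.301. PRMT1 and CARM1 remained called without that library, while PRMT3 had an adjusted p of 0.015 in edgeR. Leaving out 1 library does not test the part of the markers.

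**Figure D2:**
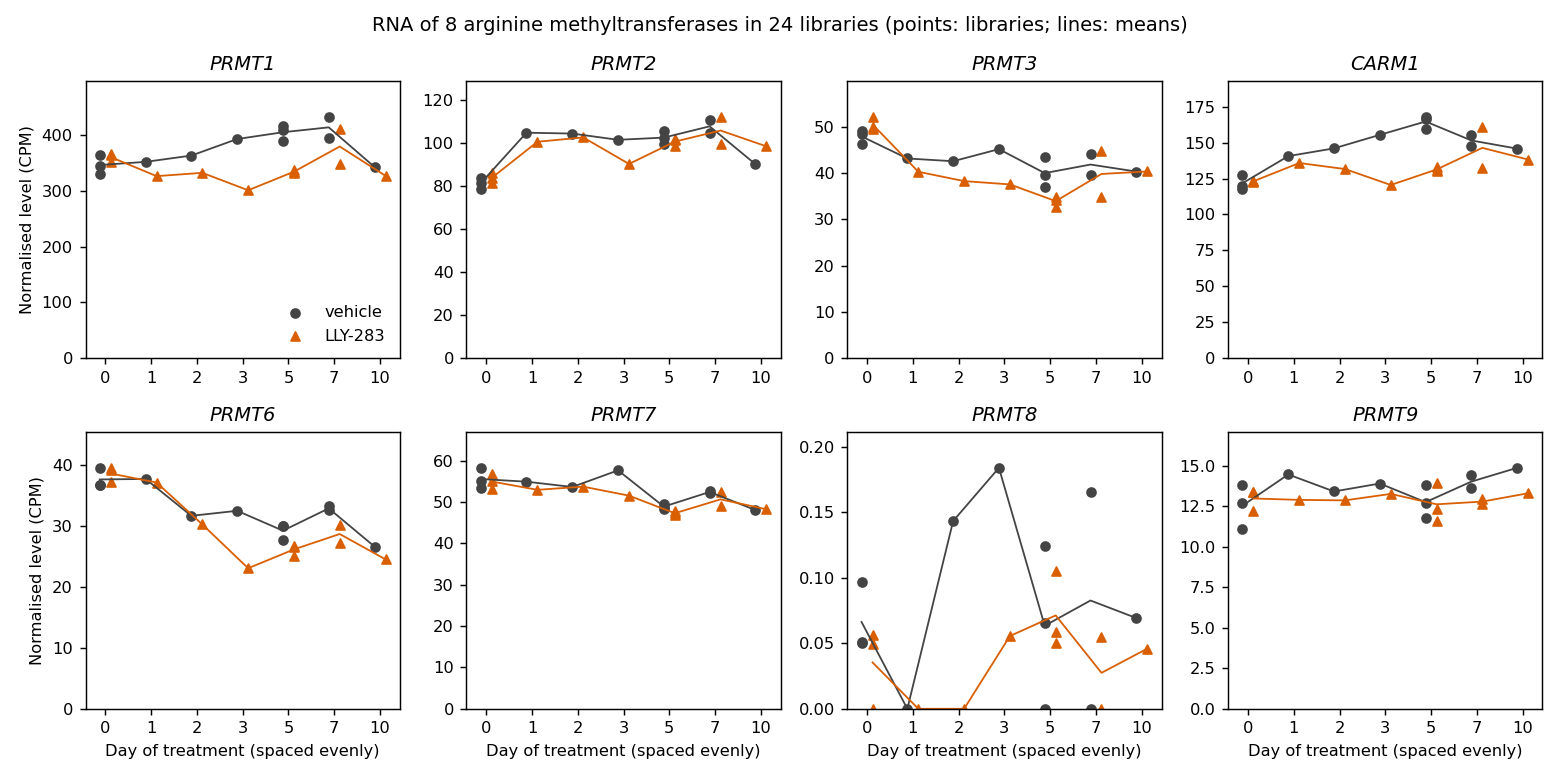
Level of each of the 8 genes in CPM (vertical axes from 0, each gene on its own scale) by day of treatment, with grey circles for vehicle libraries, orange triangles for LLY-283 libraries and lines through the means. PRMT1 and CARM1 are lower with LLY-283 at days 3 and 5, with PRMT1 at 301.3 against 393.3 CPM at day 3, while the day 7 libraries of a group lie apart.

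At day 0 the treatment groups served as a background for these differences. None of the 7 genes was called, beside 0.0169% of all 17780 genes tested, and the log2 fold changes lay between -0.029 and 0.064. By an unadjusted p under 0.05 none of the 7 passed, against 5.69% of all genes, and the DESeq2 alternative also called none. PRMT1 was at 330.2, 345.6 and 364.1 CPM with vehicle and at 365.0, 352.0 and 365.6 CPM with LLY-283, which overlap. CARM1 was at 117.6 to 127.8 CPM with vehicle and at 122.7 to 123.3 CPM with LLY-283. PRMT3 was the only one of the 7 genes whose groups did not overlap at day 0, and there the LLY-283 libraries were the higher, at 49.5 to 52.1 against 46.4 to 49.1 CPM (log2 fold change 0.064, edgeR adjusted p = 0.896). Over all genes 11.9% had separate groups at day 0, and 7.04% were separate and higher.

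The treatment effect at day 5 was then tested against that at day 0 over the 12 libraries of both days. It was lower at day 5 for PRMT1 (-0.295 ± 0.050 on the log2 scale, SE, edgeR adjusted p = 6.41e-05), CARM1 (-0.30 ± 0.051, edgeR adjusted p = 7.01e-05) and PRMT3 (-0.27 ± 0.075, edgeR adjusted p = 0.00795), and for no other of the 7 genes at the threshold. Over all 18369 genes tested, 14.9% were called and 8.15% were called lower. For PRMT6 the difference of -0.16 had an interval of -0.32 to 0.0047 (edgeR adjusted p = 0.157). The call of PRMT3 was lost with DESeq2 (adjusted p = 0.019) and, with edgeR adjusted p-values of 0.011 to 0.051, without vehicle repeat 1 of day 0, vehicle repeats 1 or 3 of day 5, LLY-283 repeats 1 or 3 of day 0, or LLY-283 repeats 1 or 2 of day 5. In a single fit of all 22 libraries of days 0 to 7, which includes the spread of day 7, none of the 3 was called at 0.01, with adjusted p-values of 0.02 for PRMT1, 0.018 for CARM1 and 0.076 for PRMT3 in edgeR. That fit called only 51 of all 20756 genes tested, against 2742 of 18369 in the main fit.

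**Figure D3:**
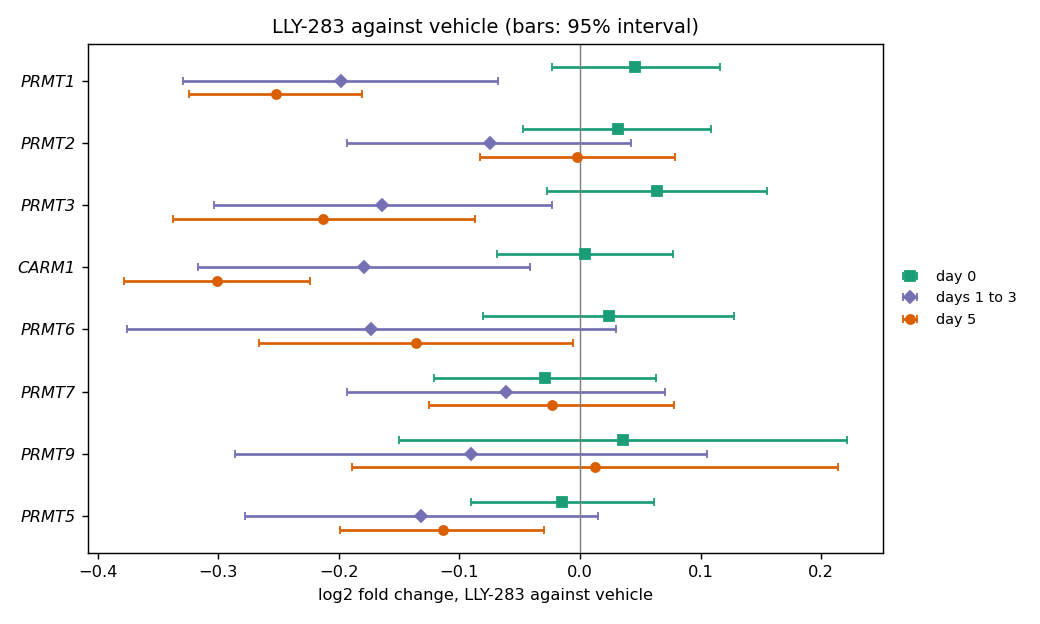
Log2 fold change of LLY-283 against vehicle for 7 PRMT genes and PRMT5 at day 0 (green squares), over days 1 to 3 (purple diamonds) and at day 5 (orange circles), with bars for the 95% interval. The day 5 intervals of PRMT1, PRMT3 and CARM1 lie below 0, as do those of PRMT6 and PRMT5, which were not called, while the day 0 intervals of all 8 genes include 0.

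Over days 1 to 3, with 1 library per treatment group and day and the day as a term, none of the 7 genes was called, beside 0.0104% of 19179 genes, and DESeq2 called none either. All 7 log2 fold changes were negative, between -0.20 and -0.062, with a median of -0.16 beside 0.0075 for all genes, of which 48.4% were below 0. PRMT1, PRMT3 and CARM1 had unadjusted p-values of 0.00644, 0.0263 and 0.0152 in edgeR's quasi-likelihood test and adjusted p-values of 0.172, 0.258 and 0.22, where 15.7% of all genes had an unadjusted p under 0.05.

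Within days 1 to 3, the single libraries lay furthest apart at day 3 for PRMT1, CARM1, PRMT3 and PRMT6. The same held for PRMT2 (-0.17 in log2 CPM at day 3), PRMT7 (-0.16) and PRMT5 (-0.34). Of the 7 tested genes, only PRMT9 lay furthest apart on day 1 (-0.16). PRMT1 measured 352.3 CPM with vehicle and 326.7 with LLY-283 on day 1, 363.6 and 332.6 on day 2, and 393.3 and 301.3 on day 3. The distance between the libraries was thus greater at day 3 than on the days before, -0.38 in log2 CPM after -0.11 and -0.13. CARM1 differed by -0.050, -0.15 and -0.37 in log2 CPM on days 1, 2 and 3, and PRMT3 by -0.099, -0.15 and -0.27. PRMT6 gave the largest difference of the 7 tested genes in these days, at 32.5 CPM in the vehicle library and 23.1 CPM in the LLY-283 library of day 3, a log2 difference of -0.49 after -0.023 and -0.066 on the days before. These days have no repeats, and differences within a day have no test.

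At day 7 the picture depended on the library. None of the 7 genes was called, none of the 16826 genes tested was (0%), and 1.4% of all genes had an unadjusted p under 0.05, with 3 genes called by DESeq2. PRMT1 was at 432.5 CPM in vehicle repeat 1 and 396.0 in vehicle repeat 2, and at 347.6 CPM in LLY-283 repeat 1 and 412.1 in LLY-283 repeat 2. CARM1 was likewise lower in repeat 2 than in repeat 1 with vehicle and higher with LLY-283, with 155.4 and 147.6 CPM for vehicle and 132.1 and 160.6 CPM for LLY-283. Between the libraries labelled repeat 1, the log2 CPM difference was -0.315 for PRMT1, -0.235 for CARM1 and -0.34 for PRMT3, and between those labelled repeat 2 it was 0.057, 0.12 and 0.18. PRMT6, at -0.14 and -0.26, and PRMT9, at -0.155 and -0.107, did not share this change of sign. PRMT2 changed sign the other way, at 0.0982 and -0.156, and PRMT7 gave -0.106 and 0.00422. PRMT6 and PRMT9 were the 2 genes whose labelled groups did not overlap, both lower with LLY-283. Of all genes 25.7% had separate groups and 13.9% were separate and lower.

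At day 10, with 1 library per treatment group, PRMT1 measured 343.1 CPM in the vehicle library and 327.3 in the treated one, CARM1 145.8 and 138.2, and PRMT3 showed a log2 difference of 0.00076. The log2 CPM differences of PRMT1 and CARM1, -0.068 and -0.077, were also nearer 0 than at day 5. So were those of PRMT6 (-0.118 against -0.159 at day 5) and PRMT7 (0.0055 against -0.0481). Those of PRMT2 (0.127 against -0.0262) and PRMT9 (-0.16 against -0.0163) were further from 0. With single libraries, none of these differences has a test.

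A time course fit of the 22 libraries up to day 7 asked whether the treatment effect depended on the day, and called none of the 7 genes, with 0.0289% of 20756 genes called and 15.3% at an unadjusted p under 0.05. The unadjusted p-values were 0.00304 for CARM1, 0.00458 for PRMT1 and 0.00926 for PRMT6 in edgeR's quasi-likelihood test, and the adjusted p-values 0.133, 0.144 and 0.179. Whether a gene was called depended on the day 7 libraries. In each of the settings that follow, far more of all genes were called than in the main fit. Over days 0 to 5 alone they were 1984 of 20642. Without LLY-283 repeat 1 or repeat 2 of that day the adjusted p in edgeR was 0.0069 or 0.0078 for PRMT1 and 0.0022 or 0.0063 for CARM1. Without both libraries labelled repeat 2 at day 7 the adjusted p in edgeR was 0.000167 for PRMT1 and 0.000292 for CARM1, and over days 0 to 5 alone 0.000261 and 0.000362, so that 2 of the 7 genes were called.

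Between day 0 and day 5, most members changed within each treatment group, and in both directions. In vehicle, 6 of the 7 genes were called, beside 38.9% of all 17106 genes tested, with PRMT1, PRMT2 and CARM1 higher (22.2% of all genes) and PRMT3, PRMT6 and PRMT7 lower (16.7%) at day 5. Both days were separate for these 6 genes, as for 57.1% of all genes. In LLY-283 libraries 5 of the 7 were called, beside 42.4% of all 17341 genes, with PRMT2 and CARM1 higher (22.9% of all genes) and PRMT3, PRMT6 and PRMT7 lower (19.5%), and 6 of the 7 had separate days, against 57.6% of all genes. These comparisons over time share their libraries with the comparisons of treatment at days 0 and 5. Cell markers changed too, with 5 of 6 tested glioma and precursor markers called higher and 1 lower in either treatment group. The 1 tested endothelial marker was called lower in either group. Neuronal markers called were all lower, 2 of 3 tested in vehicle and 1 of 3 with LLY-283. Fibroblast markers called were all higher, 1 of 4 tested and 2 of 4. The part of these markers was not tested.

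CARM1 rose the most in vehicle, from 117.6, 127.8 and 119.7 CPM at day 0 to 159.7, 167.7 and 166.7 CPM at day 5, a log2 fold change of 0.42 ± 0.040 (SE, edgeR adjusted p = 8.07e-10). In LLY-283 libraries it went from 122.7, 123.3 and 123.3 CPM to 130.5, 132.8 and 130.6 CPM. These groups were separate, yet the log2 fold change was only 0.11 ± 0.034 (SE, edgeR adjusted p = 0.00734). The call was lost with DESeq2 (adjusted p = 0.054) and, with edgeR adjusted p-values of 0.018 to 0.041, without any single LLY-283 library except the first of day 5. Among the alternatives that leave out no library, the adjusted p in edgeR was as high as 0.22. PRMT1 rose in vehicle by 0.21 ± 0.039 on the log2 scale (SE, edgeR adjusted p = 4.28e-05). With LLY-283 it had a log2 fold change of -0.091 ± 0.031 (SE, edgeR adjusted p = 0.0149), which DESeq2 called (adjusted p = 0.005), as did edgeR without the first LLY-283 library of day 5 (adjusted p = 0.0046). For PRMT1 too an alternative that leaves out no library was weaker, with an edgeR adjusted p of 0.15. The interaction test given above is also the test of the difference between these 2 changes over time, and it passed for both genes.

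PRMT2 rose in both treatment groups. It was at 78.6, 81.2 and 83.6 CPM in vehicle and at 81.4, 83.7 and 85.8 CPM in LLY-283 libraries at day 0, and all 6 libraries of day 5 lay between 98.4 and 105.4 CPM. The log2 fold changes were 0.32 ± 0.041 with vehicle and 0.28 ± 0.037 with LLY-283 (SE, edgeR adjusted p = 2.18e-07 and 4.99e-07), and their difference, -0.0305, had an interval of -0.14 to 0.079 (edgeR adjusted p = 0.732). At day 1 PRMT2 already stood at 104.6 CPM with vehicle and 100.4 CPM with LLY-283, above every library of day 0. No library from day 1 onwards was below 89.99 CPM.

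PRMT3, PRMT6 and PRMT7 fell over the same days. PRMT3 had a log2 fold change of -0.275 ± 0.056 in vehicle and -0.555 ± 0.049 with LLY-283 (SE, edgeR adjusted p = 0.000175 and 8.99e-10), which is a level that fell by 17.3% and by 32.0%. The call in vehicle was lost in the single fit of 22 libraries (edgeR adjusted p = 0.012). PRMT6 went from 36.7, 36.7 and 39.6 CPM to 30.09, 27.69 and 30.02 CPM in vehicle and from 39.2, 39.5 and 37.2 CPM to 26.8, 26.6 and 25.2 CPM with LLY-283. Both changes separated the days, with log2 fold changes of -0.38 ± 0.059 and -0.54 ± 0.054 (SE, edgeR adjusted p = 4.83e-06 and 6.3e-09). PRMT7 fell by 0.20 on the log2 scale in each treatment group, from 55.5 ± 2.49 to 48.9 ± 0.703 CPM in vehicle and from 54.9 ± 1.85 to 47.3 ± 0.531 CPM with LLY-283 (SD, n = 3; edgeR adjusted p = 0.00126 and 0.000679). Its call in vehicle was lost without the second library of day 5 (edgeR adjusted p = 0.012) and without the third of day 0 (0.011). PRMT9 had log2 fold changes of 0.0065 in vehicle and -0.021 with LLY-283, each with an interval that includes 0.

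**Figure D4:**
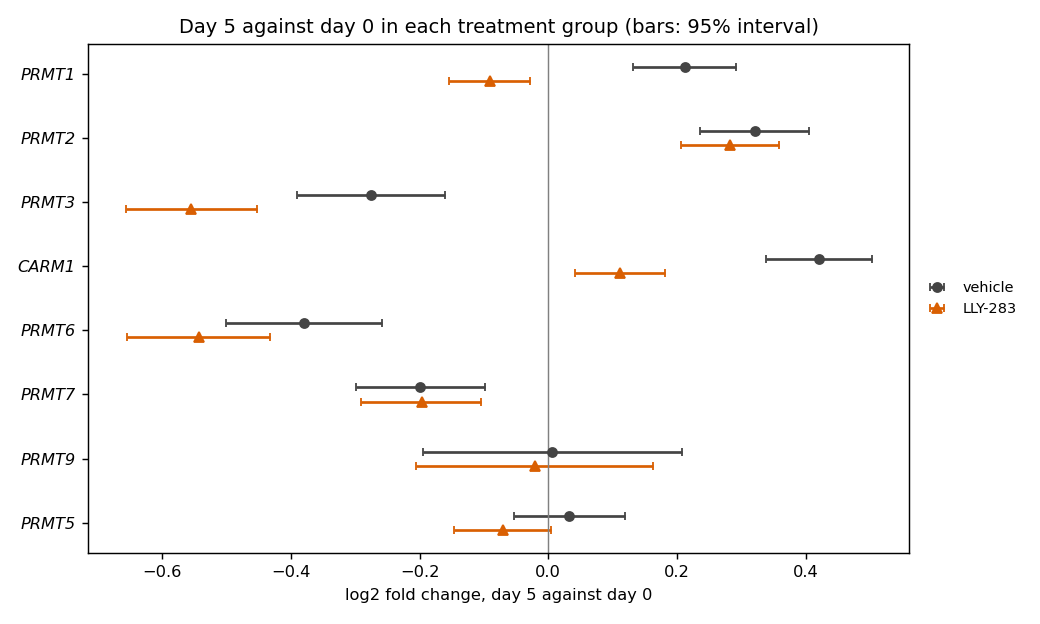
Log2 fold change of day 5 against day 0 for 7 PRMT genes and PRMT5, with grey circles for vehicle, orange triangles for LLY-283 and bars for the 95% interval. PRMT1 and CARM1 are the genes whose 2 intervals lie furthest apart, at 0.21 against -0.091 and 0.42 against 0.11, while those of PRMT2 and PRMT7 nearly coincide.

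Across the 24 libraries, the members formed no single pattern. The Pearson correlation of log2 CPM was 0.74 between PRMT1 and CARM1, 0.81 between PRMT1 and PRMT5, and between 0.75 and 0.79 among PRMT3, PRMT6 and PRMT7, whereas PRMT2 and PRMT3 gave -0.66. That of PRMT9 did not exceed 0.22 in size with any other member. These values describe libraries that share day, treatment and depth, and no test applies to them. PRMT9 also had the largest spread between libraries of a group, a pooled SD of 0.125 in log2 CPM against 0.0378 for CARM1 and 0.0383 for PRMT2.

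Among 9972 other genes with a mean of at least 10 CPM, the transcript most like PRMT1 over the 24 libraries was RSL1D1, a nucleolar protein of ribosome biogenesis, with a Pearson correlation of 0.96, followed by PPIF at 0.94. For CARM1 they were ZCCHC3 at 0.97 and XPOT, the exporter of tRNA, at 0.95. For PRMT3 they were RABEPK and C11orf98 at 0.95 and 0.94, for PRMT6 PATZ1 and MAPRE2 at 0.96 and 0.93, for PRMT2 RBM4 and SUDS3 at 0.94 and 0.94, and for PRMT7 COQ7, an enzyme of ubiquinone synthesis, and LARP7 at 0.91 and 0.90. The nearest transcripts to PRMT9 reached only 0.59 (YIF1B) and 0.57 (COA5).

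Genes that work with the PRMT enzymes were looked at in lists. Among PRMT5 and its 4 listed partners, 3 of 5 were called at day 5, all lower, where 14.1% of all genes were lower and 12% higher, with a median log2 fold change of -0.18 beside 0.02 over all genes. WDR77, the obligate partner of PRMT5, was at 129.7 ± 4.79 CPM with vehicle and, with LLY-283, 92.6 ± 1.66 CPM (SD, n = 3; log2 fold change -0.46 ± 0.040 SE, edgeR adjusted p = 4.78e-10). RIOK1 and CLNS1A, which bring substrates to PRMT5, had log2 fold changes of -0.27 and -0.18 (edgeR adjusted p = 2.09e-05 and 9.95e-04), and the call of CLNS1A was lost without the third LLY-283 library (-0.149, adjusted p = 0.014). That call also depended on the method, with adjusted p-values of up to 0.018 over the edgeR and DESeq2 settings that leave out no library. A gene without a symbol (ENSG00000243960) shares 673 exonic bases with WDR77 on its strand.

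Outside the PRMT family, the arginine methyltransferases NDUFAF7, which acts on a subunit of mitochondrial complex I, and METTL23 were not called, at -0.26 and -0.12 on the log2 scale (edgeR adjusted p = 0.0195 and 0.224). The PRMT1 cofactors BTG1 and BTG2, which are also inhibitors of proliferation, were both called higher, beside 12% of all genes. BTG1 was at 34.1 ± 1.44 CPM with vehicle and 48.5 ± 1.21 CPM with LLY-283, and BTG2 at 269.5 ± 0.663 and 339.1 ± 7.21 CPM (SD, n = 3), log2 fold changes of 0.53 ± 0.054 and 0.36 ± 0.034 (SE, edgeR adjusted p = 9.70e-09 and 2.68e-09). The third listed cofactor, EPB41L3, did not pass the filter.

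Of 8 genes for the removal of arginine methylation or the breakdown of free methylarginine, 3 were tested. DDAH1 was called higher and DDAH2 lower, beside 12% and 14.1% of all genes. The 2 genes moved in opposite directions, with log2 fold changes of 0.37 ± 0.041 and -0.39 ± 0.054 (SE, edgeR adjusted p = 3.64e-08 and 1.66e-06). In the single fit of 22 libraries both calls were lost (adjusted p = 0.027 and 0.012). JMJD6 was at -0.11 (edgeR adjusted p = 0.0936). None of the 7 Tudor-domain readers of methylarginine was called at 0.01 by edgeR as set, beside 26.1% of all genes. An adjusted p under 0.05 was found for 3 of them, beside 36.7% of all 16491 genes tested. The lowest adjusted p-values among the readers were those of TDRD7 (0.43, edgeR adjusted p = 0.0152), SMNDC1 (0.16, 0.0262) and SMN2 (-0.46, 0.0345). SMNDC1 was called without the third LLY-283 library (0.0016) and SMN2 without the second (0.00056). SMN2 was also called by DESeq2 (1.5e-05), without a filter (2.8e-13) and in the single fit of 22 libraries. In another of the settings that keep all 6 libraries, its adjusted p in edgeR was as high as 0.18. The log2 fold changes over these settings were -0.484 to -0.432. The reads of SMN2 cannot be separated with certainty from those of its near-identical copy SMN1. Both SMNDC1 and SMN2 had separate groups in the same direction already at day 0 (0.11 and -0.19, edgeR adjusted p = 0.855 and 0.34). By edgeR as set, their interactions of days 0 and 5 were not called (0.058 and -0.27, adjusted p = 0.62 and 0.16).

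Transcripts of PRMT1 substrates were mostly lower at day 5. Of 16 listed, 10 were called lower and 1 higher, beside 14.1% and 12% of all genes, with a median log2 fold change of -0.20 beside 0.02 for all genes. TAF15, an RNA-binding protein of the FET family, was at 133.9 ± 7.91 CPM with vehicle and, with LLY-283, 88.8 ± 1.82 CPM (SD, n = 3; log2 fold change -0.57 ± 0.043 SE, edgeR adjusted p = 3.84e-11). ALYREF, an mRNA export factor, had a log2 fold change of -0.38 and GAR1, a protein of box H/ACA snoRNPs, of -0.35 (edgeR adjusted p = 8.33e-09 and 3.43e-06). Of 7 listed CARM1 substrates, 3 were called lower and 1 higher, beside the same 14.1% and 12%, with a median of -0.063. SMARCC1 was lower, at -0.27, and NCOA3 was higher, at 0.23 (edgeR adjusted p = 5.93e-07 and 0.00113), and the call of NCOA3 was lost without the third vehicle (0.016) or the third LLY-283 library (0.011). Over the edgeR and DESeq2 settings that leave out no library, the adjusted p of NCOA3 was as high as 0.02. RPS2, the substrate of PRMT3, was lower at -0.21 (edgeR adjusted p = 2.57e-05), although its reads may be shared with processed copies in the genome, while SF3B2, the substrate of PRMT9, was at 0.012 (edgeR adjusted p = 0.822). The lists came from general knowledge, and the RNA of a substrate says nothing of its methylation, which was not measured here.

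**Figure D5:**
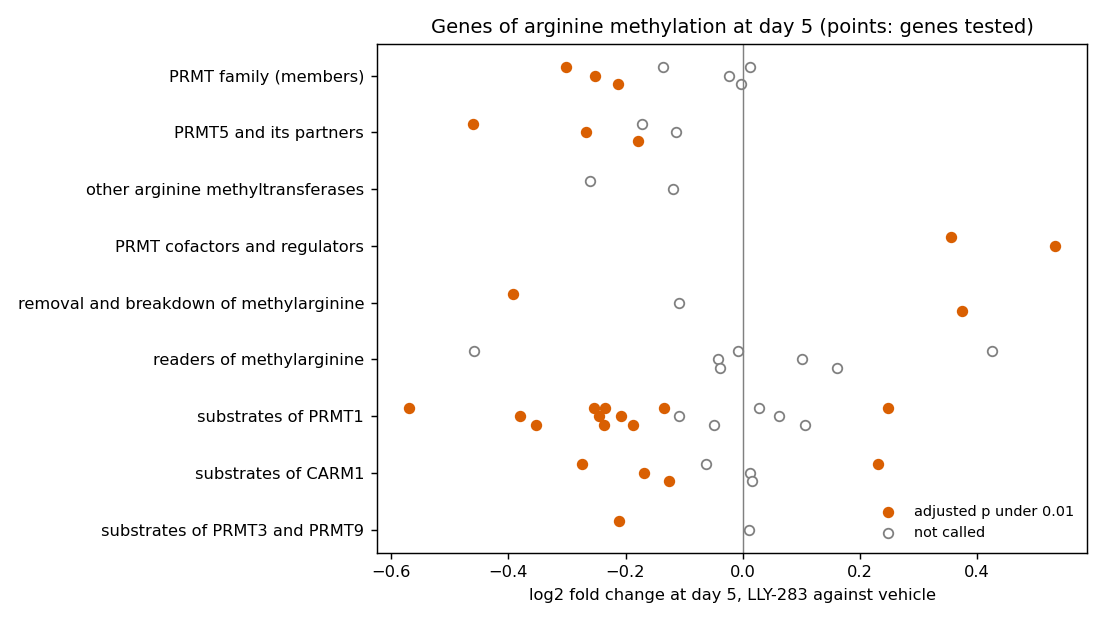
Log2 fold change of LLY-283 against vehicle at day 5 (horizontal axis) for each tested gene of 9 lists (rows), with filled orange points for an adjusted p under 0.01 and open points for others. The PRMT1 substrates show 10 filled points below 0 and 1 above, and both PRMT cofactors lie above 0.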

How the data were processed

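RNA of HSJD-DIPG-007 spheroids was sequenced from 24 libraries. Per the labels and the study's methods, poly(A) RNA was made into directional libraries and read as pairs on a NextSeq500, and the authors pseudoaligned trimmed reads to the human transcriptome (hg38) with kallisto, whose version is not given in the sources used here. The deposited values are estimated counts per Ensembl gene, already whole numbers, for 58676 genes, of which 58207 matched a GENCODE v44 symbol. Whether counting used strand is not stated.

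Groups came from the labels. Genes were filtered by edgeR's filterByExpr, scaled by TMM and tested with edgeR's quasi-likelihood test (edgeR 4.0.16, limma 3.58.1, R 4.3.3), with Benjamini-Hochberg adjustment over all genes tested and a call at an adjusted p under 0.01. Standard errors are the log2 fold change divided by the root of F, and intervals are 95%. Day 10 was left out of the tests. Levels are CPM, with a prior count of 2 on the log2 scale, and levels per kb used GENCODE exons. The TMM factors of CPM were taken over all 24 libraries, and those of each test over the libraries compared. Whether groups were separate was read from CPM. Tests used only the libraries compared, at days 0, 5 and 7, over days 1 to 3 with day as a term, between days 0 and 5 within a treatment group, as an interaction over days 0 and 5, and over days 0 to 7. Alternatives were DESeq2 1.42.0, scaling by DESeq2's factors or by library size alone, testing all genes or those with 10 or more counts throughout, an adjusted p under 0.05, the replicate block, a single fit of 22 libraries and leaving out each library. The steps were tested on simulated data. Tables were made with Python 3.11.15 (pandas 2.3.3, numpy 2.4.6).

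The members and gene lists were chosen with earlier results of these data known. All 8 members are named, with PRMT5 beside them, and of each other list the 3 tested genes of smallest p at day 5 (all genes in lists of 3 or fewer), except 1 gene that is not reported here. For each member tested, the 2 transcripts of highest Pearson correlation over 24 libraries are named, among genes with a mean of at least 10 CPM that are no pseudogenes and share no exon with it. The glioma, neuronal, fibroblast, microglial and endothelial lists served as checks of the cells. Promoter windows came from RefSeq (GRCh38.p14).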

Additional observations from a re-analysis of the deposited data

Results flagged for a closer look

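The treatment effect differed between days 5 and 0, by the interaction test of edgeR over 12 libraries, for 3 members and, of the genes named from the lists, 12. Apart from short lists named in full, the list genes were named for their small p at day 5. This test uses the same day 5 libraries, so that their passing it is no separate support. Genes of the lists that are not named here passed this test too, and of the PRMT1 substrates 10 of 16 did. As differences in log2 fold change between day 5 and day 0, the members gave -0.295 for PRMT1 (edgeR adjusted p = 6.41e-05), -0.302 for CARM1 (adjusted p = 7.01e-05) and -0.274 for PRMT3 (adjusted p = 0.00795). Every LLY-283 library was below every vehicle library at day 5 for these 3 genes, and at day 0 the groups overlapped for PRMT1 and CARM1 and were in the opposite order for PRMT3.

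Of the partners of PRMT5, WDR77 gave -0.468 (adjusted p = 1.66e-07) and RIOK1 -0.335 (adjusted p = 0.000154). The cofactors BTG1 and BTG2 gave 0.46 (adjusted p = 2.86e-05) and 0.34 (adjusted p = 5.05e-06). DDAH1 and DDAH2 differed in sign, with 0.333 for DDAH1 (adjusted p = 0.000131) and -0.417 for DDAH2 (adjusted p = 4.76e-05). Among the substrates of PRMT1, TAF15 gave -0.622 (adjusted p = 4.09e-09), ALYREF -0.431 (adjusted p = 6.54e-07) and GAR1 -0.357 (adjusted p = 0.000696). Among those of CARM1, SMARCC1 gave -0.292 (adjusted p = 4.54e-05) and NCOA3 0.28 (adjusted p = 0.00512), and RPS2, the substrate of PRMT3, gave -0.254 (adjusted p = 0.000553).

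In a single fit of 22 libraries, which includes those of day 7, WDR77 alone of these 15 genes passed the threshold (edgeR adjusted p = 0.0054). Among all 20756 genes tested in that fit, 51 passed it. The difference of NCOA3 was also above it with DESeq2 (adjusted p = 0.038) and in 7 of the 12 fits of edgeR that left out 1 library (adjusted p from 0.011 to 0.029), and that of PRMT3 in 7 of 12.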

How the results depend on the processing

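Calls of PRMT1 and CARM1 at day 5 held under every alternative run, with log2 fold changes of -0.286 to -0.245 for PRMT1 when single libraries were left out. DESeq2 and library size alone each called 2 members, not 3, at day 5 and in the interaction, and the single fit of 22 libraries called 2 at day 5. The number of members called was 1 without a filter over days 1 to 3 (PRMT1), where it had been 0, and 0 in the interaction with a single fit of 22 libraries. In the time course it was 2 without either LLY-283 library of day 7, without both day 7 libraries labelled repeat 2, and over days 0 to 5. With single libraries left out, members called ranged from 2 to 3 at day 5 and in the interaction, from 5 to 6 over time in vehicle, from 4 to 6 over time with LLY-283 and from 0 to 2 in the time course, and stayed at 0 at days 0 and 7 and over days 1 to 3. The cause of these changes was not tested, other than the samples or genes that each setting adds or removes. With the longest transcript, the share of PRMT1 was 67.4%.

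Over all genes, a single fit of 22 libraries called 2042 at day 5 and 51 in the interaction, against 4304 and 2742. When single libraries were left out, between 3193 and 4423 genes were called at day 5 and between 2126 and 3000 in the interaction. Over time the calls then lay between 5624 and 6114 in vehicle and between 6389 and 7233 with LLY-283, against 6652 and 7353. The time course called 6 genes, against 180 with DESeq2, 1217 without a filter, 1 with the block, 2002 without both day 7 libraries labelled repeat 2, 1984 over days 0 to 5 and between 0 and 894 with single libraries left out. Days 1 to 3 called 2 genes, against 517 without a filter, 9 with DESeq2, 0 with at least 10 counts in every library and up to 319 with a library left out. Day 0 called 3 genes, against 56 without a filter, 6 with the block, 0 in the fit of 22 libraries and up to 17 with a library left out, and day 7 called 0, against 27 without a filter, 3 with DESeq2 and up to 32 with a library left out. Library size alone turned the vehicle change over time from 3799 higher and 2853 lower to 3039 and 3545, the day 5 comparison from 1987 and 2317 to 2274 and 1840, and the interaction from 1245 and 1497 to 1493 and 1252.

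Repeat numbers did not pair the samples, as the correlation of deviations between libraries of the same number lay between -0.0764 and 0.0531. With the replicate block, PRMT1 became called lower over time with LLY-283 (-0.0906, adjusted p = 0.002, edgeR), which made 6 members, and the interaction of PRMT3 lost its call (-0.271, adjusted p = 0.011, edgeR), which left 2.

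Signs turned only for genes whose value in the main fit was near 0, none of them called. Leaving out a library moved some of these values further from 0, most of all at day 7. With library size alone, PRMT2 was at 0.0261 and PRMT7 at 0.00521 at day 5, CARM1 at -0.00617 at day 0, PRMT2 at 0.0114 at day 7, PRMT9 at -0.0488 and PRMT5 at -0.0219 over time in vehicle, and PRMT2 at 0.00495, PRMT9 at 0.0159 and SF3B2 at 0.0171 in the interaction. In the fit of 22 libraries, PRMT9 was at -0.0127 and SF3B2 at -0.012 at day 5 and PRMT7 at -0.0316 in the interaction, where PRMT7 was at -0.0143 with DESeq2 and -0.0142 with its size factors. With at least 10 counts in every library, PRMT9 was at -0.0193 over time in vehicle. With single libraries left out, ranges that crossed 0 were -0.0271 to 0.00864 for PRMT2, -0.0708 to 0.0652 for PRMT9 and -0.0144 to 0.0314 for SF3B2 at day 5, -0.0142 to 0.0395 for CARM1, -0.0513 to 0.00117 for PRMT7, -0.0479 to 0.116 for PRMT9 and -0.0378 to 0.00188 for PRMT5 at day 0, and -0.115 to 0.0647 for PRMT2, -0.259 to 0.101 for PRMT3, -0.189 to 0.0835 for CARM1 and -0.126 to 0.0381 for PRMT5 at day 7. They were -0.0773 to 0.085 for PRMT9 over time in vehicle and -0.101 to 0.0364 with LLY-283, and in the interaction -0.118 to 0.06 for PRMT9, -0.0254 to 0.0162 for PRMT7, -0.00517 to 0.13 for SMNDC1 and -0.0459 to 0.00439 for SF3B2. Depth limits PRMT9 most, at 179 to 330 counts in a library, and PRMT8 could not be fitted.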
